A study of Mus musculus with 6 samples.

Results

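The 5 genes described here are Nfat5, which encodes the tonicity-responsive transcription factor NFAT5 (also called TonEBP), and its osmoprotective targets Akr1b3, Slc5a3, Slc6a12 and Slc6a6. They were taken by symbol from a table of 24346 genes, and all 5 have a row in it. The libraries were made from kidney RNA of C57BL/6 mice after the surgery that the labels call IVCC (3 libraries) and after Sham surgery (3 libraries). The series concerns renal congestion, and the labels do not spell out IVCC. The sources used here give no age, sex or time after surgery, and nothing says that replicates were separate animals, so the p-values measure only how these libraries spread, which may be technical. Values are in FPKM, the number of fragments divided by transcript length and by the mapped fragments of the library, so levels of different genes can be compared per length.

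NFAT5 enters the nucleus and activates its targets when the fluid around a cell becomes hypertonic, as it is in the renal medulla while urine is concentrated. Its targets load the cell with small organic osmolytes that balance the salt outside without disturbing proteins. Aldose reductase (Akr1b3) makes sorbitol from glucose, the sodium-dependent transporter SMIT1 (Slc5a3) imports myo-inositol, BGT1 (Slc6a12) imports betaine, and TauT (Slc6a6) imports taurine. In the kidney, transcripts of this set are used as a mark of medullary tonicity, and they also depend on how much medulla a piece of tissue holds.

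In IVCC kidneys the levels of Nfat5, Slc5a3 and Slc6a6 lay within the range of Sham kidneys or close to it, and no difference was detected for any of them. Slc6a12 was listed at a level worth 0 to 3 reads per library, and Akr1b3 was listed at or near 0 in all 6 libraries. Both therefore fell below the minimum of a mean of 1 FPKM, which left 3 of the 5 genes among the 12090 tested. Most windows of 75 bases of the aldose reductase transcript also occur in other genes. Of these genes Gm6644, a near-identical copy, had a high value in every library.

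Sequences bear on Akr1b3 and on Slc6a12. Akr1b3 (GRCm38 chromosome 6, 34302434 to 34317478, minus strand) has a spliced coding transcript of 1387 bases in GENCODE M21. Of its 1313 windows of 75 bases, the read length of these libraries, 1053 occur exactly in transcripts of 4 other genes, and 19.8% are unique. The processed pseudogene Gm6644 (chromosome 1, 55444074 to 55445024, minus strand) holds 49.7% of the windows. Gm38056 holds more, at 74.5%, and Gm6736 and Gm12138 hold 40.3% and 31.6%. Of these genes only Gm6644 has a row among the deposited values, and only its identity to Akr1b3 was measured. Compared base by base over its whole length of 951 bases, Gm6644 differs from the Akr1b3 transcript at 3 positions, an identity of 99.7%, and the longest identical stretch spans 535 bases. The same 75-base stretch of each transcript (bases 572 to 646 of Akr1b3 and 499 to 573 of Gm6644) is printed here to let the likeness be seen, with the base that differs in capitals.
Akr1b3: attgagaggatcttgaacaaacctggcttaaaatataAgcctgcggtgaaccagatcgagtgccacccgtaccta
Gm6644: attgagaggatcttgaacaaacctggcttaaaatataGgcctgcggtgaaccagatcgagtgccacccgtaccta

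**Figure D1:**
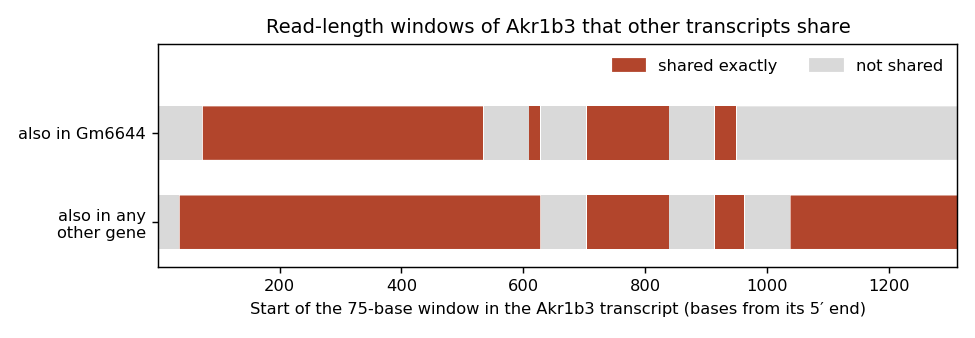
Windows of 75 bases along the Akr1b3 coding transcript (horizontal axis, start of the window in bases from the 5′ end), coloured where the same 75 bases occur in Gm6644 (upper bar) or in any other gene (lower bar) of GENCODE M21. Only 19.8% of the windows are unique to Akr1b3, and Gm6644 alone shares 49.7%.

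The other 4 genes are set apart from the rest of the transcriptome far better. Windows of Nfat5, Slc6a12 and Slc6a6 had no exact match in another gene. For Slc5a3 (chromosome 16, 92058322 to 92087473, plus strand) 99.2% of windows were unique, and the shared ones lie in Mrps6, a mitochondrial ribosomal protein gene on the same strand whose annotated start is 52 bases upstream, and in the overlapping Gm49711.

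NFAT5 binds the tonicity-responsive enhancer element, TonE, whose core reads TGGAAA. RefSeq promoter windows of 300 bases on GRCm38.p6 (250 bases before a transcript start and 50 from it) matched Nfat5 and Slc5a3 with 1 window each and Slc6a12 with 5. Akr1b3 and Slc6a6 had no window and were not searched. Some of the Slc6a12 windows overlap each other, so the windows are not independent. Both strands were searched for the core and for the TonE consensus, which contains it. The consensus occurred in 1 of these 7 windows, against 4.96% of all 32851 promoter windows, and the core in the same 1, against 21.4%. That window belongs to the most upstream Slc6a12 start (chr6:121342324-121342623, plus strand). It is shown because it is the only one with a match, which lies on the plus strand, begins at base -75 from the start site and is in capitals. A match is a description of the letters and not a binding site.
Slc6a12 promoter: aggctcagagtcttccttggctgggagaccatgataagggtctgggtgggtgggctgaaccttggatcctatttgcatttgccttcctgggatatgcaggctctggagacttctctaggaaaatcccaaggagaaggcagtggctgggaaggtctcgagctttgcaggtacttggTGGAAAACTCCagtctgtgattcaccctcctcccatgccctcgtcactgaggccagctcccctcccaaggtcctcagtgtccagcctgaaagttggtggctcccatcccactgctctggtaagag

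The libraries resembled each other as a whole. Across the 12090 genes tested, pairs of libraries had Spearman correlations of 0.959 to 0.978 inside a group and 0.944 to 0.980 across the groups. Depth is not given by FPKM, but the steps between low values put the IVCC libraries at a nominal 8040000 to 8990000 reads and the Sham libraries at 6040000 to 7230000. Limma, a linear model with variances moderated across genes, called 0 of 12090 genes (0%) at a Benjamini-Hochberg adjusted p under 0.05, with 431 genes (3.56%) at an unadjusted p under 0.05, 205 of them higher and 226 lower (262 of 344 higher at a common FPKM sum). None of Nfat5, Slc5a3 and Slc6a6 was among the 1.7% of genes that were higher or the 1.87% that were lower at that unadjusted threshold. None was among the 4.09% whose IVCC libraries all lay above the Sham libraries or the 4.22% whose IVCC libraries all lay below. With no gene called, every difference reported here is a value that did not pass the test. Rescaling each library to the same FPKM sum put the median log2 fold change of all genes at 0.15, against -0.01 with FPKM as deposited, so small differences are read relative to that shift. Transcripts that define the kidney were high, such as the proximal phosphate transporter Slc34a1 at 2465 ± 101.5 FPKM in IVCC kidneys and 2184 ± 66.2 FPKM in Sham kidneys (SD, n = 3 each).

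Nfat5 (chromosome 8, 107293470 to 107379517, plus strand) is the regulator of the set. It had 5.185, 7.07 and 5.68 FPKM in the IVCC libraries 1 to 3, against 5.40, 7.19 and 5.73 FPKM in the Sham libraries. The groups overlapped almost fully, and the highest library of each group was the one numbered 2. The means were 5.98 ± 0.980 FPKM in IVCC kidneys and 6.11 ± 0.951 FPKM in Sham kidneys (SD, n = 3 each). The log2 fold change was -0.03 (standard error 0.15) and a 95% interval of -0.38 to 0.33 (limma, adjusted p = 0.978). That interval spans folds of 0.767 to 1.26 on the FPKM + 1 scale. Of the tested genes, 11.5% had a smaller absolute difference. At a common FPKM sum the log2 fold change was 0.13, close to the median of all genes.

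Slc5a3, the myo-inositol transporter, had 6.91, 8.23 and 7.29 FPKM in IVCC kidneys, against 6.97, 7.48 and 7.57 FPKM in Sham kidneys. The IVCC libraries held both the lowest and the highest of the 6 values, so the Sham range lay inside theirs. Its log2 fold change was 0.02 (standard error 0.11) and a 95% interval of -0.24 to 0.28 (limma, adjusted p = 0.974). Mrps6, which shares its first bases with Slc5a3, averaged 110.7 ± 25.5 FPKM in IVCC kidneys and 132.9 ± 33.04 FPKM in Sham kidneys, a log2 fold change of -0.26 that did not pass (limma, adjusted p = 0.924). Mrps6 holds few of the Slc5a3 windows but stood at a much higher level. How much of the Slc5a3 value came from the shared bases was not tested.

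Slc6a6 (chromosome 6, 91684053 to 91759066, plus strand), the taurine transporter, was the most abundant of the 3. It had 43.8, 48.4 and 43.6 FPKM in IVCC kidneys, against 40.9, 48.0 and 40.6 FPKM in Sham kidneys. The Sham library 2 lay among the IVCC values and the other 2 Sham libraries lay below all of them. The means were 45.3 ± 2.75 FPKM in IVCC kidneys and 43.2 ± 4.22 FPKM in Sham kidneys (SD, n = 3 each). The log2 fold change was 0.07 (standard error 0.12) and a 95% interval of -0.20 to 0.34 (limma, adjusted p = 0.931), which spans folds of 0.871 to 1.26. Its mean level exceeded that of 80.6% of the tested genes, against 39.0% for Slc5a3 and 33.6% for Nfat5.

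Slc6a12 (chromosome 6, 121343076 to 121365775, plus strand), the betaine transporter, was barely sampled. It was listed at 0.051, 0 and 0.092 FPKM in IVCC kidneys, against 0, 0.058 and 0.206 FPKM in Sham kidneys. At the nominal library sizes these values are worth 1.0, 0 and 2.02 reads in IVCC and 0, 1.02 and 3.04 reads in Sham. They are therefore 0 to 3 reads a library, from which no difference between the groups was detectable at this depth. The nominal sizes were chosen to put the most genes at whole reads within 0.1 read, at 81.2% to 86.3% of those used. That share was fitted, so it is not a check of the sizes.

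Akr1b3 was listed at 0.001, 0.001 and 0 FPKM in IVCC kidneys, against 0.001, 0.001 and 0 FPKM in Sham kidneys. A value of 0.001 FPKM is worth 0.00821 to 0.00987 of a read at the nominal sizes, less than the smallest whole count. It is thus a remainder of an estimate rather than a count, and the level of aldose reductase cannot be read from this row. Gm6644 was listed at 59.3, 58.6 and 75.9 FPKM in IVCC kidneys, against 75.3, 57.1 and 91.9 FPKM in Sham kidneys. The lowest and the highest of these 6 values were both in Sham, and the groups overlapped. Its log2 fold change was -0.19 (standard error 0.19) and a 95% interval of -0.64 to 0.26 (limma, adjusted p = 0.924). How many of the reads behind this value came from Akr1b3 was not tested. Gm6644 was chosen for its sequence after the value of Akr1b3 had been seen.

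**Figure D2:**
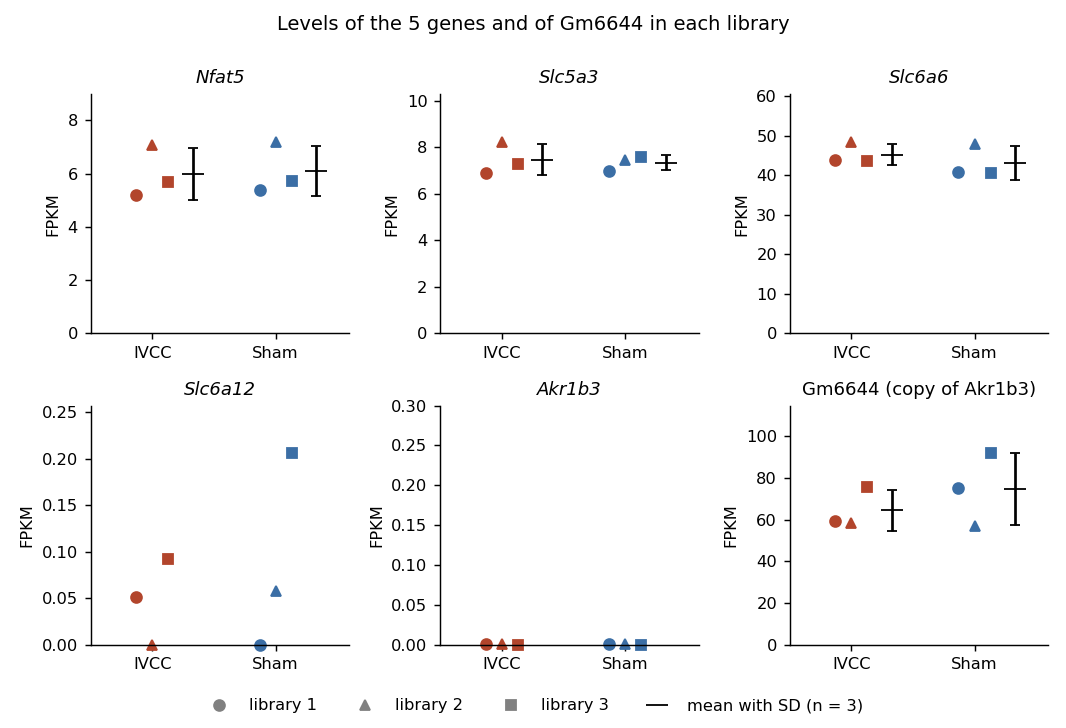
FPKM (vertical axis, from 0, scaled for each gene) in the 3 IVCC and the 3 Sham libraries, with marker shapes for the library numbers and the mean with its SD beside the points where the gene was tested. Nfat5, Slc5a3, Slc6a6 and Gm6644 overlap between the groups, Slc6a12 stays at or below 0.206 FPKM, and Akr1b3 does not exceed 0.001 FPKM.

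In order of listed level, Slc6a6 stood first, Slc5a3 next, Nfat5 after it and Slc6a12 below these. Akr1b3 is left out of this order, since its level cannot be read from its row. Slc6a6 exceeded Slc5a3 in 6 of 6 libraries by far more than the spread of either. Slc5a3 exceeded Nfat5 in 6 of 6 libraries too, but their ranges over libraries overlapped, at 6.91 to 8.23 and 5.185 to 7.19 FPKM. Likeness to each tested gene was ranked among the other tested genes, with predicted genes and small RNA genes left out. The gene most like Nfat5 over the 6 libraries was Polr3d, a subunit of RNA polymerase III, with a Pearson correlation of 0.995. Osbpl6 (0.985) and Oasl1 (0.979) followed. For Slc5a3 these were H2-Q9 (0.985), Cldnd1 (0.978) and Slco1a1 (0.972), and for Slc6a6 they were Zfp799 (0.995), Suv420h1 (0.991) and Tab3 (0.990). These are the highest of as many correlations as there were genes ranked, each on log2(FPKM + 1) over the same 6 libraries. They are given as descriptions.

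Other genes around these 5 were gathered into lists by their roles. All 14 listed regulators of NFAT5 were tested, 10 higher and 4 lower in IVCC, and 0 passed, with a median log2 fold change of 0.09, against -0.01 over all genes tested. Those with the smallest unadjusted p were Fyn, Nup88, Parp1 and Dhx9. Fyn, a Src-family kinase reported to promote NFAT5 activity, averaged 2.52 ± 0.474 FPKM in IVCC kidneys and 1.86 ± 0.431 FPKM in Sham kidneys. Dhx9, an RNA helicase reported to bind and restrain NFAT5, averaged 24.5 ± 7.23 FPKM in IVCC kidneys and 19.7 ± 5.43 FPKM in Sham kidneys. Parp1 averaged 13.96 ± 0.985 FPKM in IVCC kidneys and 12.3 ± 1.42 FPKM in Sham kidneys. Nup88, a nuclear pore protein, averaged 23.8 ± 0.894 FPKM in IVCC kidneys and 26.7 ± 0.553 FPKM in Sham kidneys. Its IVCC libraries all lay below its Sham libraries, as was the case for 4.22% of tested genes, but its difference turned to 0.01 when FPKM were rescaled to the same sum. Of the NFAT relatives that answer to calcineurin, 2 of 4 were tested, Nfatc1 and Nfatc3, both with log2 fold changes of 0.16 that did not pass (limma, adjusted p = 0.924 each).

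Further genes reported as NFAT5 targets in kidney or immune cells went in both directions. Of 12 listed, 10 were tested, 6 higher and 4 lower in IVCC, and 0 passed, with a median log2 fold change of 0.16. That median was 0.018 to 0.12 with 1 library left out (lowest without Sham 3), 0.05 with no filter and 0.32 at a common FPKM sum. Cryab, which encodes the small chaperone alpha-B crystallin and is abundant in the inner medulla, had 56.6, 51.8 and 97.3 FPKM in IVCC kidneys, against 116.8, 138.3 and 161.9 FPKM in Sham kidneys. Every IVCC value lay below every Sham value, as was the case for 4.22% of tested genes. Its log2 fold change was -1.05 (standard error 0.25) and a 95% interval of -1.63 to -0.48, at an unadjusted p of 0.00317 and a limma adjusted p of 0.924. Among the others, the chemokine gene Ccl2 had 1.21, 1.56 and 1.63 FPKM in IVCC kidneys, against 1.185, 1.15 and 0 FPKM in Sham kidneys (limma, adjusted p = 0.924). Its IVCC values lay above its Sham values, as for 4.09% of tested genes, but the groups nearly met at 1.21 and 1.185 FPKM. The log2 fold change of Ccl2 was 0.55, and 0.18 to 0.75 with 1 library left out. S100a4 averaged 12.1 ± 2.28 FPKM in IVCC kidneys and 9.33 ± 2.21 FPKM in Sham kidneys, and the lymphangiogenic ligand gene Vegfc 1.82 ± 0.333 and 1.36 ± 0.391 FPKM. The heat shock genes Hspa1a and Hspa1b are near-identical copies, so their separate values are uncertain.

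Genes of sorbitol handling stood at very different levels. Sord, the dehydrogenase that turns sorbitol into fructose, averaged 1086 ± 20.9 FPKM in IVCC kidneys and 1046 ± 59.6 FPKM in Sham kidneys. Of the 6 tested genes of sorbitol handling and the aldose reductase family, 2 were higher and 4 lower in IVCC, with a median log2 fold change of -0.16 that turned to 0.02 both at a common FPKM sum and under quantile normalization, and 0 passed. Akr1b10 averaged 40.9 ± 5.81 FPKM in IVCC kidneys and 46.9 ± 9.15 FPKM in Sham kidneys, and Akr1b8 3.34 ± 0.593 and 4.385 ± 1.20 FPKM. Akr1b7 averaged 4.91 ± 0.818 FPKM in IVCC kidneys and 4.415 ± 0.603 FPKM in Sham kidneys. Khk, the fructokinase, averaged 883.6 ± 201.5 FPKM in IVCC kidneys and 1025 ± 249 FPKM in Sham kidneys. Every one of these genes overlapped between the groups.

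For myo-inositol, 5 of 6 listed genes were tested, 2 higher and 3 lower in IVCC, and 0 passed, with a median log2 fold change of -0.04 that turned to 0.13 at a common FPKM sum and 0.08 under quantile normalization. Miox, the oxygenase that breaks down myo-inositol in proximal tubules, averaged 4164 ± 922.4 FPKM in IVCC kidneys and 4685 ± 1207 FPKM in Sham kidneys. Slc5a11, the second sodium-dependent inositol transporter, averaged 40.9 ± 6.40 FPKM in IVCC kidneys and 46.0 ± 9.88 FPKM in Sham kidneys, several times the level of Slc5a3. Isyna1, which makes inositol phosphate from glucose phosphate, averaged 26.8 ± 3.32 FPKM in IVCC kidneys and 27.7 ± 4.02 FPKM in Sham kidneys. Impa2, a phosphatase that releases inositol, averaged 8.93 ± 1.10 FPKM in IVCC kidneys and 7.45 ± 2.33 FPKM in Sham kidneys.

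At an unadjusted p under 0.05 (limma), 2 genes of the betaine and glycerophosphocholine list and 1 of the taurine synthesis list were lower in IVCC. So were 1.87% of all tested genes. In the sorbitol and inositol lists 0 genes passed that threshold. With lists this short, these counts do not set the lists apart. Of 4 listed genes of taurine synthesis, 3 were tested, 1 higher and 2 lower, and 0 passed, with a median log2 fold change of -0.30, or -0.12 at a common FPKM sum and -0.16 under quantile normalization. Slc6a13, a GABA and taurine transporter gene that ends 5343 bases before Slc6a12, had 76.0, 75.7 and 96.6 FPKM in IVCC kidneys, against 102.8, 106.4 and 130.4 FPKM in Sham kidneys. Cdo1, the cysteine dioxygenase that starts taurine synthesis, had 107.0, 115.8 and 142.0 FPKM in IVCC kidneys, against 144.7, 180.1 and 179.1 FPKM in Sham kidneys. The IVCC values lay below the Sham values without overlap for both genes, as was the case for 4.22% of tested genes. Slc6a13 had a log2 fold change of -0.45 (standard error 0.15) and Cdo1 one of -0.47 (standard error 0.16), at unadjusted p-values of 0.0193 and 0.0184 (limma, adjusted p = 0.924 each). Csad, the next enzyme of taurine synthesis, averaged 124.7 ± 16.0 FPKM in IVCC kidneys and 153.1 ± 12.5 FPKM in Sham kidneys, with overlap. Fmo1, which can oxidise hypotaurine to taurine, averaged 330 ± 13.97 FPKM in IVCC kidneys and 319.4 ± 25.4 FPKM in Sham kidneys.

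Of the 10 genes of betaine and glycerophosphocholine metabolism, a list that includes Slc6a13, 4 were higher and 6 lower in IVCC, with a median log2 fold change of -0.02 that turned to 0.14 at a common FPKM sum, and 0 passed. Dmgdh, the mitochondrial dimethylglycine dehydrogenase of betaine breakdown, averaged 57.7 ± 4.06 FPKM in IVCC kidneys and 73.2 ± 6.66 FPKM in Sham kidneys, without overlap. Groups did not overlap in either direction for 8.31% of the tested genes. Bhmt2 averaged 79.2 ± 12.3 FPKM in IVCC kidneys and 101.7 ± 17.0 FPKM in Sham kidneys. Gdpd5, a phosphodiesterase that degrades glycerophosphocholine, averaged 1.08 ± 0.147 FPKM in IVCC kidneys and 1.37 ± 0.437 FPKM in Sham kidneys. For cell volume channels and transporters, 5 of 7 listed genes were tested, 5 higher and 0 lower in IVCC, and 0 passed. Lrrc8a, the obligatory subunit of the volume-regulated anion channel through which taurine leaves swollen cells, averaged 13.5 ± 1.44 FPKM in IVCC kidneys and 13.05 ± 1.80 FPKM in Sham kidneys. Its partner Lrrc8b averaged 4.695 ± 2.67 FPKM in IVCC kidneys and 3.06 ± 1.42 FPKM in Sham kidneys. The cotransporter gene Slc12a2 averaged 9.11 ± 1.87 FPKM in IVCC kidneys and 7.92 ± 1.84 FPKM in Sham kidneys.

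**Figure D3:**
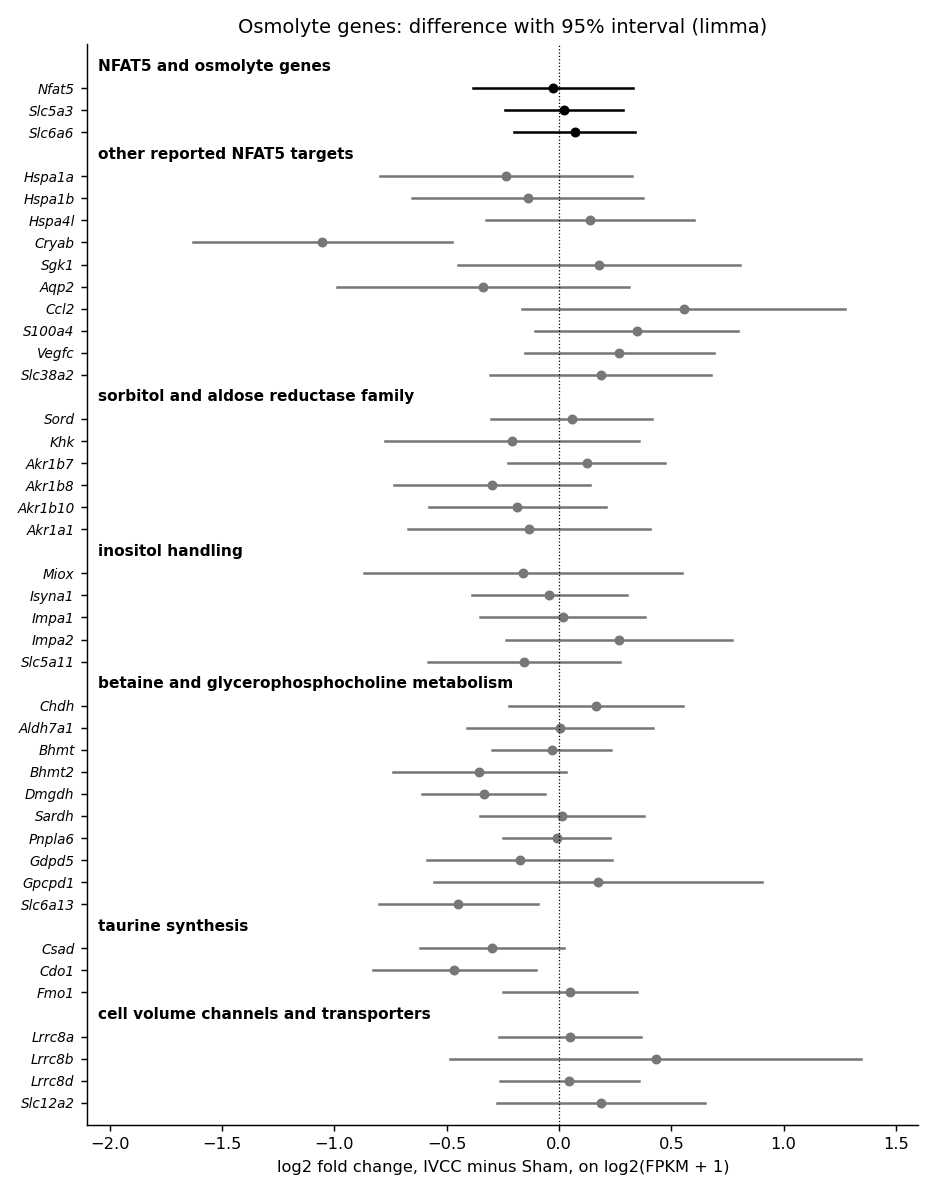
Log2 fold change of IVCC over Sham on log2(FPKM + 1) (horizontal axis) for tested genes of 7 lists, with the point estimate and its 95% interval from limma, n = 3 libraries per group. Nfat5, Slc5a3 and Slc6a6 lie within 0.1 of 0, while Cryab at -1.05, Cdo1 at -0.47 and Slc6a13 at -0.45 lie furthest below it, and 0 of the genes shown passed the adjusted test.

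Because a whole kidney mixes zones, marker genes of each zone were set beside the 5 genes. In bulk tissue, fewer cells of a type and less RNA per cell cannot be told apart. Of 8 thick ascending limb markers, 3 were higher and 5 lower in IVCC, with a median log2 fold change of -0.04 that turned to 0.13 at a common FPKM sum. Umod, the uromodulin gene of that limb, had 1187, 1095 and 1086 FPKM in IVCC kidneys, against 1105, 841.9 and 1702 FPKM in Sham kidneys. Its sign turned with the scaling, to 0.12 at a common FPKM sum. Ptger3, another marker of that limb, averaged 9.64 ± 0.354 FPKM in IVCC kidneys and 13.6 ± 2.39 FPKM in Sham kidneys. Its IVCC libraries all lay below its Sham libraries, as for 4.22% of tested genes, at an unadjusted p of 0.0156 (limma, adjusted p = 0.924). Of 8 collecting duct principal cell markers, 4 were higher and 4 lower, with a median log2 fold change of -0.0034 that turned to 0.16 at a common FPKM sum. Aqp2, the vasopressin-regulated water channel, had 138.5, 75.6 and 130.3 FPKM in IVCC kidneys, against 185.4, 107.3 and 139.9 FPKM in Sham kidneys.

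The short list of thin limb and inner medulla markers stood lower, with 0 of 3 tested genes higher and 3 lower in IVCC and a median log2 fold change of -0.80. That median was -0.40 with a pseudocount of 5 and -1.11 to -0.56 with 1 library left out. The list includes Cryab. The water channel gene Aqp4 averaged 2.30 ± 1.33 FPKM in IVCC kidneys and 4.56 ± 1.22 FPKM in Sham kidneys, with overlap and an unadjusted p of 0.0283. Slc14a2, which encodes the urea transporters of the inner medulla, was listed at 0, 0.043 and 0 FPKM in IVCC kidneys, against 1.115, 0 and 0.3 FPKM in Sham kidneys. The summed level of the list was 70.1 to 122.6 FPKM in IVCC kidneys and 139.3 to 193.3 FPKM in Sham kidneys. Markers of the outer stripe, where the S3 segment of the proximal tubule runs, had 4 of 5 genes lower in IVCC and a median log2 fold change of -0.88. They summed to 496.3 to 648.1 FPKM in IVCC kidneys and 718.7 to 1014 FPKM in Sham kidneys. Slc22a19 averaged 35.85 ± 5.43 FPKM in IVCC kidneys and 75.0 ± 20.9 FPKM in Sham kidneys, and Cyp7b1 69.0 ± 20.5 and 151.9 ± 48.3 FPKM. Slc5a1, the 1 marker of this list that was higher, averaged 24.7 ± 0.667 and 24.0 ± 0.159 FPKM. In 3 of the 5 genes every IVCC library lay below every Sham library, against 4.22% of tested genes. In Slc5a1 every IVCC library lay above, against 4.09%. Cortical nephron markers had 7 of 8 genes higher in IVCC, with a median log2 fold change of 0.24. None of these marker genes passed the adjusted test, and their part in the levels of the osmolyte genes was not tested.

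**Figure D4:**
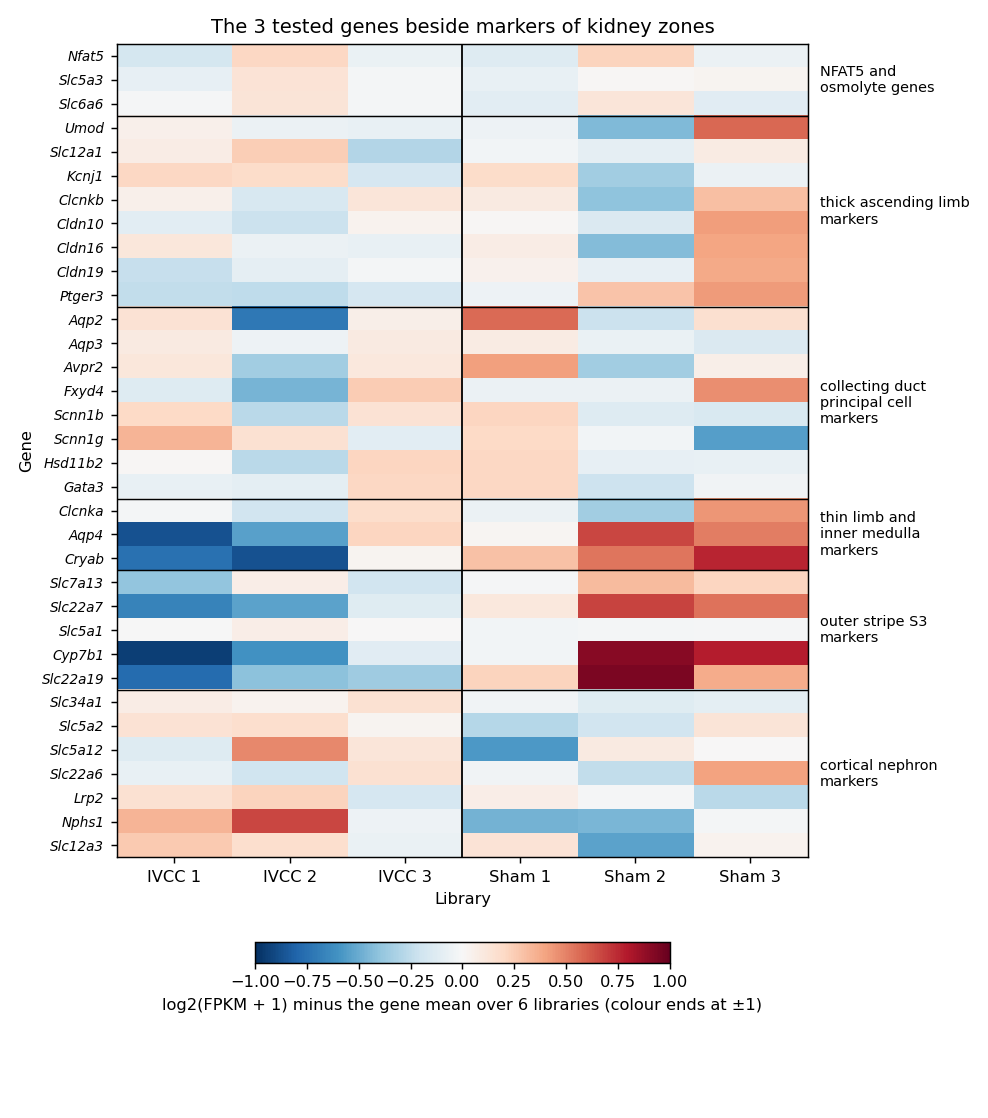
Deviation of log2(FPKM + 1) from each gene's mean over the 6 libraries (colour, red above and blue below the mean, ending at ±1) for the 3 tested osmolyte genes and for markers of kidney zones, with the IVCC libraries left of the line and the Sham libraries right of it. Nfat5, Slc5a3 and Slc6a6 stay pale. Cryab, Ptger3, Slc22a7, Cyp7b1 and Slc22a19 are lower in every IVCC library than in any Sham library, as were 4.22% of tested genes. Slc34a1 and Slc5a1 are higher in every IVCC library than in any Sham library, as were 4.09% of tested genes.

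Markers of neighbouring tissue were read as well. Of 7 urothelial markers, which would show the lining of the renal pelvis, 1 was tested, and the list summed to 0.885 to 1.96 FPKM in IVCC kidneys and 1.17 to 11.2 FPKM in Sham kidneys. The highest sum was that of 1 library, Sham 3, in which Upk2 had 2.19 FPKM, against 0 in the other 5 libraries, and Upk3a 2.525 FPKM, against at most 0.241. Psca, the marker tested, had 0, 0.18 and 0.668 FPKM in IVCC kidneys, against 2.625, 0.425 and 3.25 FPKM in Sham kidneys, at a log2 fold change of -1.16 and an unadjusted p of 0.0250 (limma, adjusted p = 0.924). Without Sham 3 the log2 fold changes were -0.06 for Nfat5, 0.04 for Slc5a3 and 0.03 for Slc6a6. The defining adipose genes Adipoq, Plin1 and Lep were at 0 in all 6 libraries, as were 4 of 5 adrenal markers. Of the other adipose markers, Fabp4, which endothelial cells also express, had 74.7 to 138.8 FPKM in IVCC kidneys and 85.9 to 140.3 FPKM in Sham kidneys, and Cidec did not exceed 0.145 FPKM. Erythroid markers summed to 59.8 to 109 FPKM in IVCC kidneys and 84.8 to 115.1 FPKM in Sham kidneys, and 3 of 4 were tested, with a median log2 fold change of -0.02 that turned to 0.15 at a common FPKM sum.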

How the data were processed

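RNA of 6 mouse kidney libraries (3 IVCC, 3 Sham, grouped and numbered by their titles) was sequenced from stranded mRNA libraries with single-end reads of 75 bp, per the labels' protocols. Values are FPKM as deposited by the authors. The submitters' processing notes name mm10, Cufflinks 2.2.1, TopHat2 2.0.13, SAMtools 0.1.19 and Bowtie2 2.2.3 with no roles. The annotation and the handling of multiply mapped reads are unstated in the sources used here.

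A mean of 1 FPKM or more was required of a gene to be tested on log2(FPKM + 1), a scale that understates changes of low genes, with limma 3.58.1 in R 4.3.3 (trend, two-sided, Benjamini-Hochberg over 12090 genes), checked on simulated data. An exact permutation test of 3 against 3 cannot go below p = 0.1 and was not used. Lists are described by counts and medians with no test. Nominal depth was read from genes with 1 transcript of 1500 to 5000 bases listed below 0.1 FPKM, assuming fragments of 200 bases. GENCODE M21 (GRCm38, the assembly mm10 stands for) gave coordinates and transcripts, and RefSeq gave promoters.

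The 5 genes and the lists were chosen with earlier results of these data known. Named by rule were the 5 genes, up to 4 genes by smallest p from each list of targets, regulators, relatives and osmolyte or volume handling, Umod, Aqp2, Slc14a2, Cryab, Slc34a1, and the 3 genes most like each tested gene. Sord, Mrps6, Gm6644 and all other markers were chosen after their values were seen, and 2 genes of the lists are not reported here by name. Alternatives were pseudocounts of 0.1 and 5, no filter, a filter at 5 FPKM, 3 scalings, 2 other variance settings, the replicate number as a block, and leaving out libraries.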

Additional observations from a re-analysis of the deposited data

How the results depend on the processing

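None of the 5 genes was called under any of the 17 settings tried, and over all genes 0 were called except when libraries were left out. Without 1 library 0 to 4 genes were called, and 4 without both libraries numbered 3, a setting chosen after seeing the data. All of these were microRNA or small nucleolar RNA genes: Mir762 and Snora43 without IVCC replicate 1, Snora65, Mir1957b and Snord7 without IVCC replicate 2, Snora17, Mir215, Snora23 and Mir678 without IVCC replicate 3 or both libraries numbered 3, and Mir1892 without Sham replicate 2. The count at an unadjusted p under 0.05 was 431, and 1030 without IVCC replicate 3, 216 without IVCC replicate 1, 220 without IVCC replicate 2, 780 with no filter, and 282 with a filter at 5 FPKM. Slc6a6 stayed higher in IVCC in all settings (log2 fold change 0.02 to 0.24), while Nfat5 and Slc5a3 changed sign around 0. Leaving out 1 library gave -0.14 to 0.080 for Nfat5, -0.041 to 0.070 for Slc5a3, -0.38 to 0.023 for Miox, -0.16 to 0.058 for Isyna1, -0.021 to 0.15 for Lrrc8a, -0.28 to 0.0053 for Slc5a11 and -0.29 to 0.22 for Umod. Rescaling to a common FPKM sum put the median of all genes at 0.15, against -0.01, and gave 0.13 for Nfat5, 0.013 for Nup88, 0.016 for Slc5a11, 0.016 for Miox, 0.13 for Isyna1 and 0.12 for Umod, all below that median. Quantile normalization gave -0.012 for Slc5a3, 0.037 for Khk, 0.12 for Miox and 0.19 for Umod, and leaving out both libraries numbered 3 gave 0.24 for Umod. The cause of these changes was not tested. Of 305 alternative list medians 18 moved by more than the SD between replicates, 8 of them at a common FPKM sum. Of 688 alternative values of other named genes 17 changed sign. With no filter, Akr1b3 and Slc6a12 entered the fit and were not called.

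The library numbers were not taken to pair the samples, since the labels give no pairing and the deviations of same-numbered libraries correlated at -0.11, 0.34 and 0.32, not all above 0.1. As a hint of pairing from the data, 4 of 6 libraries correlated best with their own number. With the replicate number as a block, 0 genes were called (limma, smallest adjusted p = 0.0775) and 2388 had an unadjusted p under 0.05. Cryab, Slc6a13, Slc22a7, Cyp7b1 and Slc22a19 shared that smallest adjusted p, and Cdo1 had 0.0856. For Nfat5, Slc5a3 and Slc6a6 the adjusted p was 0.884, 0.91 and 0.588. FPKM give no read totals, which limits what can be said of Slc6a12 and Akr1b3.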

Other observations

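NFAT5 is also known to act in macrophages. Of 6 listed macrophage markers, 5 were higher and 1 lower in IVCC, with a median log2 fold change of 0.41, and the list summed to 75.9 to 96.4 FPKM in IVCC kidneys and 68.6 to 75.8 FPKM in Sham kidneys. Lyz2 and Mpeg1 lay higher in every IVCC library than in any Sham library, as did 4.09% of tested genes. Csf1r, the receptor that macrophages depend on, averaged 11.97 ± 1.89 FPKM in IVCC kidneys and 15.7 ± 1.96 FPKM in Sham kidneys. None of the 6 passed the limma test over all genes.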
